A study of Mus musculus with 4 samples.

Results

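Expression of 10 genes of glycolysis and the hypoxia response was examined in mouse embryonic fibroblasts (MEFs) labelled as lacking cyclin G1 or cyclin G2. The genes were Slc2a1, Hk2, Pfkl, Aldoa, Pgk1, Ldha, Pdk1, Vegfa, Bnip3 and Egln3. They were chosen by name, with earlier results of these data known. Every gene probe that carried one of these names on the array was taken. This gave 16 of 41174 probes and 10 of 27597 gene names. The study compared 4 RNAs on 4 arrays that carry a Cy5 and a Cy3 channel. RNA from CycG1-/- MEFs (G1KO) was hybridised together with RNA from CycG1+/+ MEFs (WT) on 2 arrays, and RNA from MEFs labelled CycG2-/- (G2KO) together with RNA from CycG2+/+ MEFs (WT) on the other 2. In each pair the knockout RNA was labelled with Cy5 on the first array and with Cy3 on the second, its dye swap. The design asks which transcripts differ when either cyclin is absent.

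All 4 cultures were untreated MEFs of the C57BL/6J background, in logarithmic growth in DMEM with 10% serum, taken as primary cells from mid-gestation embryos. The CycG1-/- allele has its coding exons replaced by a neomycin cassette driven by the promoter of Pgk1, one of the 10 genes. How the CycG2-/- allele was made is not given in the sources used here. Both arrays of a pair carried the same 2 RNAs, so that each genotype had 1 replicate. No p-value is therefore given, every ± is an SD over the paired arrays and so technical, and no difference has a check between cultures. A ratio is the log2 of knockout over WT. A level is the log2 brightness of a probe in a single channel after scaling, given as the mean of the Cy5 and Cy3 readings of that RNA ± the SD between them, and levels are compared between RNAs at the same probe only. That SD holds a dye difference which the RNAs share, so the difference between the levels of 2 RNAs is read within each dye and given as the mean ± SD of both dyes. A probe was called when it was at least 2-fold higher, or at least 2-fold lower, on each array of the pair.

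Of the targeted genes, Ccng1 gave log2 ratios of -6.67 ± 0.13 and -4.96 ± 0.08 at its 2 probes in G1KO. In the G2KO comparison the same probes of Ccng1 were called higher, with 2.67 ± 0.03 and 2.49 ± 0.04. At the second of them the level of Ccng1 was 12.91 and 13.01 in the WT of the G1KO pair but 10.70 and 10.76 in the WT of the other pair. Ccng2 gave 0.09 ± 0.27 in the G2KO comparison and so was not lower at its probe, and this RNA is called the RNA labelled G2KO, or the G2KO-labelled RNA, throughout. Whether that probe lies within the deleted part of the gene was not tested. All 8 fibroblast markers were well above background in all 4 RNAs. Of all tested probes 4.06% were called lower in the RNA labelled G2KO. Of the 8 markers 5 were, with a list median of -1.85. Their summed level on the linear scale was 185322 to 261898 there and 298461 to 635859 in the other 3 RNAs. The summed level of 6 epithelial or mesothelial markers was 165519 to 217795 in the WT of the G1KO pair, 45919 to 55059 in G1KO and 1511 to 4125 in the other pair. That of 5 neural or glial markers was 22356 to 22615 in the RNA labelled G2KO and 2291 to 4616 elsewhere. Of the 4 endothelial markers at most 1 was above background in any RNA, and of the 4 macrophage markers at most 2. In every RNA 1 or 2 of the 4 muscle markers were above background. The part of these cell types in the results was not tested. In a bulk culture, fewer cells of a type and less RNA per cell cannot be told apart.

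Glycolysis converts glucose into pyruvate in the cytosol. When oxygen is scarce, hypoxia-inducible factors (HIF) are no longer hydroxylated and destroyed, and they bind hypoxia response elements, whose core reads ACGTG or GCGTG, near the genes they activate. These genes include those that encode glucose transporters, glycolytic enzymes, the kinase that shuts pyruvate out of mitochondria, angiogenic factors and the hydroxylase that closes the loop on HIF itself. Cultured fibroblasts take up much glucose and release lactate even with ample oxygen.

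The promoters are shown first, because the core element was searched for in them. Windows of 300 bases, from 250 before the annotated transcript start to 50 after it, came from RefSeq on the GRCm38.p6 build. All 10 genes were matched, with 15 windows, since Aldoa had 3 annotated starts and Ldha, Pdk1 and Vegfa had 2 each. The letters searched were ACGTG and GCGTG on both strands, where the palindrome CACGTG counts as a match on each strand. At least 1 window of every gene held a match, but for Aldoa and Vegfa only at a later annotated start. A gene with more windows has more chances of a match. Of the 15 windows 12 held a match, beside 43.8% of all windows. Among all 27025 genes in the table, 46.7% had such a window, and among the 10150 that were also measured in both comparisons 66.7% did. With ACGTG alone, the figures were 8 of 10 genes, 21.8% of all genes and 28.8% of the measured ones. The windows of the 10 genes were richer in G and C, with a median of 65.3% beside 52.7% for all windows, and the letters searched are themselves rich in G and C. A match is a description of letters and not a binding site.

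Promoters of 5 genes are printed below from 250 bases before the start up to the start, in the 5′ to 3′ direction of the gene, with the matched letters in capitals. Bnip3 and Hk2 are the genes that were called, Ldha has the most matches, Pgk1 shares its promoter with the knockout cassette, and Egln3 is the gene with opposite ratios. They lie at chr7:138909507-138909756 (minus strand), chr6:82774455-82774704 (minus), chr7:46845554-46845803 (plus), chrX:106186850-106187099 (plus) and chr12:54203875-54204124 (minus), in that order.
Bnip3: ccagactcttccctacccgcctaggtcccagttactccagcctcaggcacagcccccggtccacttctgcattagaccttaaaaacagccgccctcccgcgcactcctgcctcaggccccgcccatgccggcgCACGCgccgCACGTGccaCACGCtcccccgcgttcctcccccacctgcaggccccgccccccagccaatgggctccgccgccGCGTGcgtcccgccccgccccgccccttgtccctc
Hk2: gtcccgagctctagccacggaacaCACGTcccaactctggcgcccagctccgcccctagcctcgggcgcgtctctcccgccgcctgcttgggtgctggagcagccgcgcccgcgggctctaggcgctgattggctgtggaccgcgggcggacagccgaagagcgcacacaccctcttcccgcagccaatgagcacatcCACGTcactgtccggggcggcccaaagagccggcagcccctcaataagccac
Ldha: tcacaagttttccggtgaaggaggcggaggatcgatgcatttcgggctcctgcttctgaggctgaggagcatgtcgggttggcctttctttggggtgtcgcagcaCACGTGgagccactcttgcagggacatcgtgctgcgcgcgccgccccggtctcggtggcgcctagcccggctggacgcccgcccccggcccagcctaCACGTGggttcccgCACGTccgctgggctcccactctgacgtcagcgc
Pgk1: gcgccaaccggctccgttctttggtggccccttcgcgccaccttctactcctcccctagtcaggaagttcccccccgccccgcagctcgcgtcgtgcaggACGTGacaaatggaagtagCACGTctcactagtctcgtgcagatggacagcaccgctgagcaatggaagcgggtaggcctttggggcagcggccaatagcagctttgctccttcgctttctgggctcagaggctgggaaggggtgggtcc
Egln3: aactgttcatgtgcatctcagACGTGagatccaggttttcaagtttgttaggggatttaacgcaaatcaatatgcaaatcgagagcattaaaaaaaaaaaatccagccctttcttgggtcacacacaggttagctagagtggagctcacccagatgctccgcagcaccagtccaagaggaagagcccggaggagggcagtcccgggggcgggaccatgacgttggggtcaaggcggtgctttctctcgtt

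The whole Bnip3 window held 5 matches, 4 of them between 117 and 99 bases before the start. Ldha held 7 at its first annotated start, of which 4 came from a pair of CACGTG palindromes, at 145 and 48 bases before the start. Hk2 and Pgk1 held 2 each, and Egln3 held 1, which lay 229 bases upstream. No match was found at the first annotated starts of Aldoa and Vegfa or at the second of Pdk1.

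**Figure D1:**
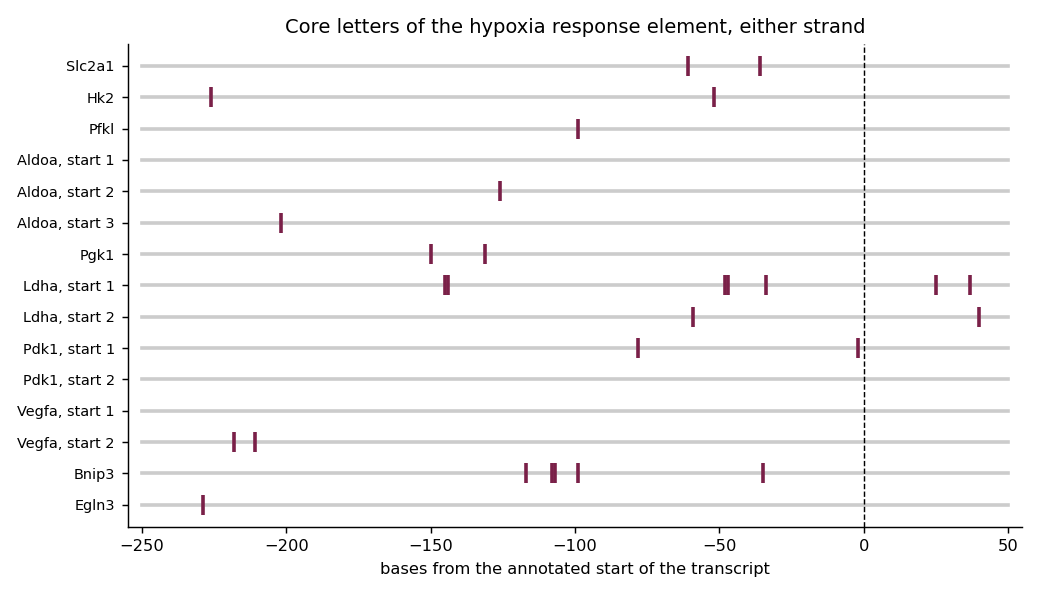
Positions of ACGTG or GCGTG on either strand in the 15 promoter windows of the 10 genes. The x axis gives bases from the annotated transcript start, grey lines are the windows of 250 bases before and 50 after the start, and ticks mark the first base of each match. Matches are seen in 12 of the 15 windows, most densely at Bnip3 and at the first start of Ldha.

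Nearly all of the 10 genes were more abundant in the knockout RNA of both pairs, mostly by less than 2-fold. In G1KO, 9 of 10 genes were higher on both arrays, while 40.0% of all 16591 genes tested were (9 of 10 also with the scanner's own log ratio, but 4 of 10, beside 14.2% of all genes, when arrays were centred on their median without loess). The exception was Vegfa. None of the 10 was lower on both arrays, which 41.0% of all genes were. In the RNA labelled G2KO, 9 of 10 were again higher on both arrays, beside 39.9% of 16517 genes (4 of 10 beside 15% with median centring). Egln3 was lower on both, which 43.9% of all genes were. On all 4 arrays, 8 of 10 were higher, beside 16.4% of 15717 genes measured in both comparisons. The genes were chosen with earlier results of these data known, so these counts are a description and not a test. For each gene the brightest probe tested in the comparison was used, which for Aldoa in the G2KO-labelled RNA was its second probe.

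The median log2 ratio over the 10 genes was 0.69 in G1KO, with 0.84 where the G1KO RNA carried Cy5 and 0.55 on the dye swap. The median over all genes was -0.0023. In the RNA labelled G2KO the median of the 10 was 0.79, with 0.84 and 0.61 on the individual arrays, and that of all genes was -0.016. Few single differences reached 2-fold. In G1KO, 1 of 15 tested probes, that of Bnip3, was called higher, beside 1.99% of all 25541 tested probes, and 0 were called lower, beside 3.80%. In the RNA labelled G2KO, 1 of 16 probes, that of Hk2, was called higher, beside 2.31% of 25431, and 0 lower, beside 4.06%. At 1.5-fold on each array, the probes higher were 5 of 15 in G1KO, beside 5.04% of all probes, and 8 of 16 in the G2KO-labelled RNA, beside 6.28%. Several of these probes read the same transcript and are not independent of each other.

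**Figure D2:**
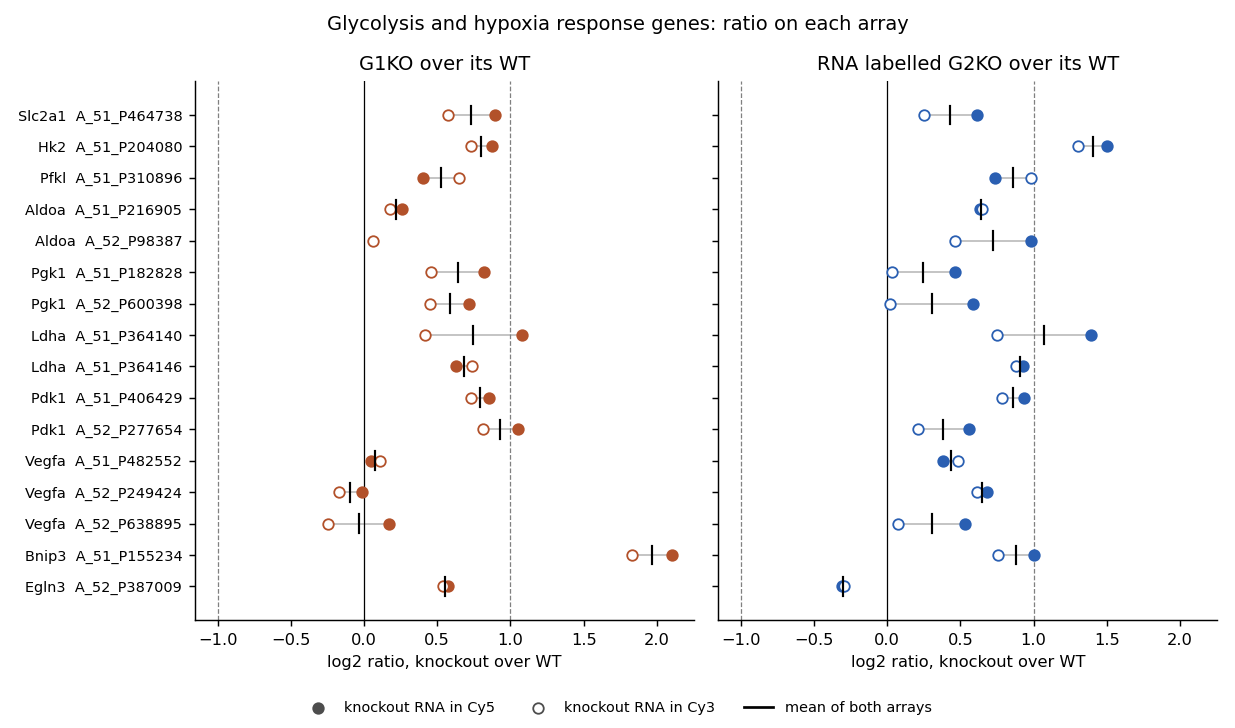
Log2 ratio of knockout over WT on each array for the 16 probes of the 10 genes, in G1KO (left) and in the G2KO-labelled RNA (right). Filled points are arrays with knockout RNA in Cy5, open points those with it in Cy3, black ticks the mean of both, and dashed lines mark 2-fold. Both points lie past the line only for Bnip3 in G1KO and for Hk2 in the G2KO-labelled RNA, and those of Egln3 change sides of 0 between the panels.

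Of the 16 probes, 15 were well above background on every array in both genotypes, and none of the spots used was saturated. The other, a second probe of Aldoa, was above background on the arrays that were used, but its spot was marked as an outlier on the first array of G1KO and it was not tested there. The dye swap changed the size of many ratios in a repeated way. Of the 15 probes with a ratio on all 4 arrays, 10 gave a higher ratio with the knockout RNA in Cy5 in both pairs, 2 gave a higher ratio with it in Cy3 in both pairs, and 3 differed between pairs. The share over all tested probes was not counted, and several of the 15 read the same transcript. One probe of Ldha differed most, by 0.66 between the arrays of the G1KO pair and by 0.64 between those of the other pair. For such probes the SD between arrays holds a dye difference that the mean of both arrays balances.

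Slc2a1 encodes GLUT1, the transporter that brings glucose into most cultured cells. Its probe (chromosome 4, 118635191 to 118635250 on the mm8 build of the array design, plus strand) gave ratios of 0.89 and 0.57 on the 2 arrays of G1KO, with a mean of 0.73 ± 0.23. The RNA labelled G2KO gave 0.61 and 0.25, with a mean of 0.43 ± 0.26. All 4 arrays were above 0, and neither comparison reached 2-fold. On the log2 scale, the level of Slc2a1 was 12.92 ± 0.08 in the WT of the G1KO pair and 13.24 ± 0.19 in the WT of the other pair. Both knockout RNAs lay above them, at 13.65 ± 0.15 in G1KO and 13.67 ± 0.07 in the G2KO-labelled RNA, and these 2 did not differ beyond their spread.

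Hk2 encodes hexokinase 2, which phosphorylates glucose on entry. At its probe (chromosome 6, 82690720 to 82690779, minus strand) the ratios were 0.87 and 0.73 in G1KO, with a mean of 0.80 ± 0.10, a 1.74-fold difference. They were 1.5 and 1.31 in the RNA labelled G2KO, with a mean of 1.40 ± 0.14, or 2.64-fold, the one call among the 10 genes in that comparison. It was no longer a call with median centring. The knockout levels were close to each other, at 13.13 ± 0.0015 in G1KO and 12.96 ± 0.0095 in the G2KO-labelled RNA. The WT levels were further apart, at 12.33 ± 0.10 in the G1KO pair and 11.56 ± 0.15 in the other pair. The larger ratio in the second comparison thus went with a lower WT, by 0.78 ± 0.05, and not with a higher knockout level.

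Pfkl, the liver-type subunit of phosphofructokinase, which commits sugar to glycolysis, was read at chromosome 10, 77391310 to 77391369 (minus strand). It gave 0.40 and 0.65 in G1KO (mean 0.52 ± 0.17) and 0.74 and 0.98 in the G2KO-labelled RNA (mean 0.86 ± 0.17). Here the array with knockout RNA in Cy3 gave the higher ratio in both pairs. Its level was lowest in the WT of the G1KO pair (9.91 ± 0.04). G1KO (10.43 ± 0.13) and the WT of the other pair (10.44 ± 0.02) did not differ beyond their spread, and the RNA labelled G2KO was highest (11.30 ± 0.20).

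Aldoa encodes aldolase A, which splits the sugar into 3-carbon units. Its brightest probe that was tested in both comparisons (chromosome 7, 126586235 to 126586249, minus strand) gave 0.26 and 0.18 in G1KO, the smallest difference among the genes that were higher on both arrays of that pair, with a mean of 0.22 ± 0.06. With the RNA labelled G2KO it gave 0.63 and 0.65, with a mean of 0.64 ± 0.01. The second probe (126586433 to 126586492) had 0.06 on its single usable array of G1KO, and 0.98 and 0.46 in the RNA labelled G2KO, with a mean of 0.72 ± 0.37. At the first probe the WT levels were 16.14 ± 0.06 in the G1KO pair and 16.11 ± 0.05 in the other, lower by a small amount in both dyes (-0.03 ± 0.01). G1KO was at 16.36 ± 0.0010 and the RNA labelled G2KO at 16.75 ± 0.05.

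Pgk1 encodes phosphoglycerate kinase 1, which makes the first ATP of the pathway, and lies on the X chromosome. It was read by 2 overlapping probes on the plus strand, at 102406147 to 102406206 and 102406169 to 102406228. The first was printed in 10 spots. Its ratios were 0.82 and 0.46 in G1KO (mean 0.64 ± 0.25) and 0.46 and 0.04 in the G2KO-labelled RNA (mean 0.25 ± 0.30). Over its spots the ratio ranged from 0.73 to 0.95 on the first array of G1KO and from -0.0095 to 0.05 on the second array of the other pair, so that the spots of an array were closer to each other than the 2 arrays. The overlapping probe gave 0.72 and 0.45 (mean 0.58 ± 0.19), then 0.59 and 0.02 (mean 0.30 ± 0.40). Thus in the RNA labelled G2KO the mean ratio of Pgk1 was smaller than the SD between arrays at both probes, an SD that holds the dye difference. Read within each dye, this RNA was above its WT at both probes. At the first probe it read 16.15 beside 15.96 in Cy5 and 16.00 beside 15.69 in Cy3. At the overlapping probe it read 15.69 beside 15.49 in Cy5 and 15.51 beside 15.10 in Cy3. The level at the first probe was 15.31 ± 0.24 in the WT of the G1KO pair, 15.82 ± 0.19 in the other WT, 15.95 ± 0.01 in G1KO and 16.07 ± 0.11 in the G2KO-labelled RNA. The lowest lay 0.52 ± 0.05 below its neighbour. G1KO exceeded the WT of the other pair by 0.12 ± 0.18, a difference within its spread, and the G2KO-labelled RNA exceeded G1KO by 0.13 ± 0.09.

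The knockout and WT cultures also differed in sex-linked transcripts. Xist, the RNA that silences an X chromosome, was higher at the probe with its largest ratio by 7.54 ± 0.43 in G1KO and by 7.24 ± 0.46 in the G2KO-labelled RNA, and Eif2s3y of the Y chromosome did not exceed background clearly in either knockout. The authors attribute the higher Xist in both knockouts to MEFs of female origin. For X-linked Pgk1, as for the other genes, genotype and these sex-linked differences cannot be told apart.

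Ldha encodes lactate dehydrogenase A, which turns pyruvate into lactate and so restores the cofactor that glycolysis consumes. Its brighter probe (chromosome 7, 46723561 to 46723620, plus strand) gave 1.08 and 0.42 in G1KO (mean 0.75 ± 0.47) and 1.39 and 0.75 in the G2KO-labelled RNA (mean 1.07 ± 0.45). The second probe, whose design coordinates run from 46722098 to 46723027, further than the probe is long, gave 0.63 and 0.74 (mean 0.68 ± 0.08), then 0.93 and 0.88 (mean 0.91 ± 0.03). Both probes were above 0 on all arrays, and the second gave similar means with a much smaller difference between dyes. At the second probe the WT levels of 14.85 ± 0.11 and 14.91 ± 0.16 differed by 0.07 ± 0.05, the second being higher in both dyes, and the levels of 15.53 ± 0.19 in G1KO and 15.82 ± 0.13 in the G2KO-labelled RNA lay above both. Aldoa, Pgk1 and Ldha have close copies in the mouse genome, and hybridisation of transcripts from such copies was not tested.

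Pdk1 encodes a pyruvate dehydrogenase kinase, which keeps pyruvate out of mitochondrial oxidation. Its 2 probes lay on chromosome 2, plus strand, at 71702470 to 71702529 and 71704602 to 71704661. The first gave 0.85 and 0.73 in G1KO (mean 0.79 ± 0.09) and 0.94 and 0.78 in the G2KO-labelled RNA (mean 0.86 ± 0.11). The second gave 1.05 and 0.81 in G1KO (mean 0.93 ± 0.17) but 0.56 and 0.21 in the G2KO-labelled RNA (mean 0.38 ± 0.25). The probes thus differed in size in the second comparison, by more than their SDs. All 4 RNAs stood apart at the first probe, with levels of 8.50 ± 0.05 in the WT of the G1KO pair, 9.29 ± 0.03 in G1KO, 9.60 ± 0.0058 in the WT of the other pair and 10.46 ± 0.10 in the G2KO-labelled RNA. The WT of the second pair therefore had more Pdk1 than G1KO did.

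Bnip3, a mitochondrial protein of the BCL2 family that promotes mitophagy and is induced in hypoxia, had the largest ratio of the 10 genes. Its probe (chromosome 7, 138729737 to 138729796, minus strand) gave 2.10 and 1.83 on the 2 arrays of G1KO. The mean of 1.96 ± 0.19 corresponds to 3.90-fold, and over all alternatives tried it stayed between 1.83 and 2.17. The G2KO-labelled RNA gave 1.0 and 0.76, with a mean of 0.88 ± 0.18, or 1.84-fold. The level of Bnip3 was 9.09 ± 0.10 in the WT of the G1KO pair and 11.05 ± 0.10 in G1KO, but already 11.46 ± 0.11 in the WT of the other pair and 12.34 ± 0.06 in the G2KO-labelled RNA. The 2 WT RNAs differed by 2.36 in Cy3 and by 2.38 in Cy5, more than the G1KO difference, and the WT of the second pair lay above G1KO.

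Vegfa encodes vascular endothelial growth factor A, the best known secreted product of the hypoxia response. It was read by 3 probes on chromosome 17, minus strand. In G1KO no probe moved far from 0. The probe at 45482144 to 45482203, printed in 10 spots, gave 0.05 and 0.11 (mean 0.08 ± 0.04), that at 45489008 to 45489067 gave -0.02 and -0.17 (mean -0.09 ± 0.11), and the brightest, at 45481019 to 45481078, gave 0.17 and -0.25 (mean -0.04 ± 0.30). The last mean was above 0 with median centring, with either of the authors' log ratios and on the first array alone. In the RNA labelled G2KO all 3 were above 0 on both arrays, with 0.38 and 0.49 (mean 0.43 ± 0.07), 0.68 and 0.61 (mean 0.65 ± 0.05), and 0.53 and 0.07 (mean 0.30 ± 0.32). At the brightest probe the 4 levels lay between 10.82 ± 0.15 and 11.13 ± 0.17. The WT of the G2KO pair was the lowest, with -0.16 ± 0.0021 against the other WT, and the RNA labelled G2KO the highest, 0.18 ± 0.03 above G1KO. The probe at 45489008 to 45489067 gave levels of 9.41 ± 0.10 in the WT of the G1KO pair, 9.31 ± 0.01 in G1KO, 8.64 ± 0.01 in the other WT and 9.29 ± 0.04 in the G2KO-labelled RNA. There the 2 knockout RNAs differed by -0.02 ± 0.03 and the 2 WT RNAs by -0.77 ± 0.08, which was larger in size than either ratio.

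Egln3 encodes PHD3, a prolyl hydroxylase that marks HIF for destruction and is itself induced by HIF. Its probe (chromosome 12, 55101592 to 55101651, minus strand) gave 0.57 and 0.54 in G1KO, with a mean of 0.56 ± 0.03. For the RNA labelled G2KO the arrays gave -0.31 and -0.30, with a mean of -0.30 ± 0.01. The arrays of each pair were close to each other, and the 2 comparisons had opposite signs under every alternative tried. The WT levels of 8.87 ± 0.04 and 8.81 ± 0.01 were close. G1KO was highest, at 9.42 ± 0.06, and the RNA labelled G2KO lowest, at 8.50 ± 0.02.

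**Figure D3:**
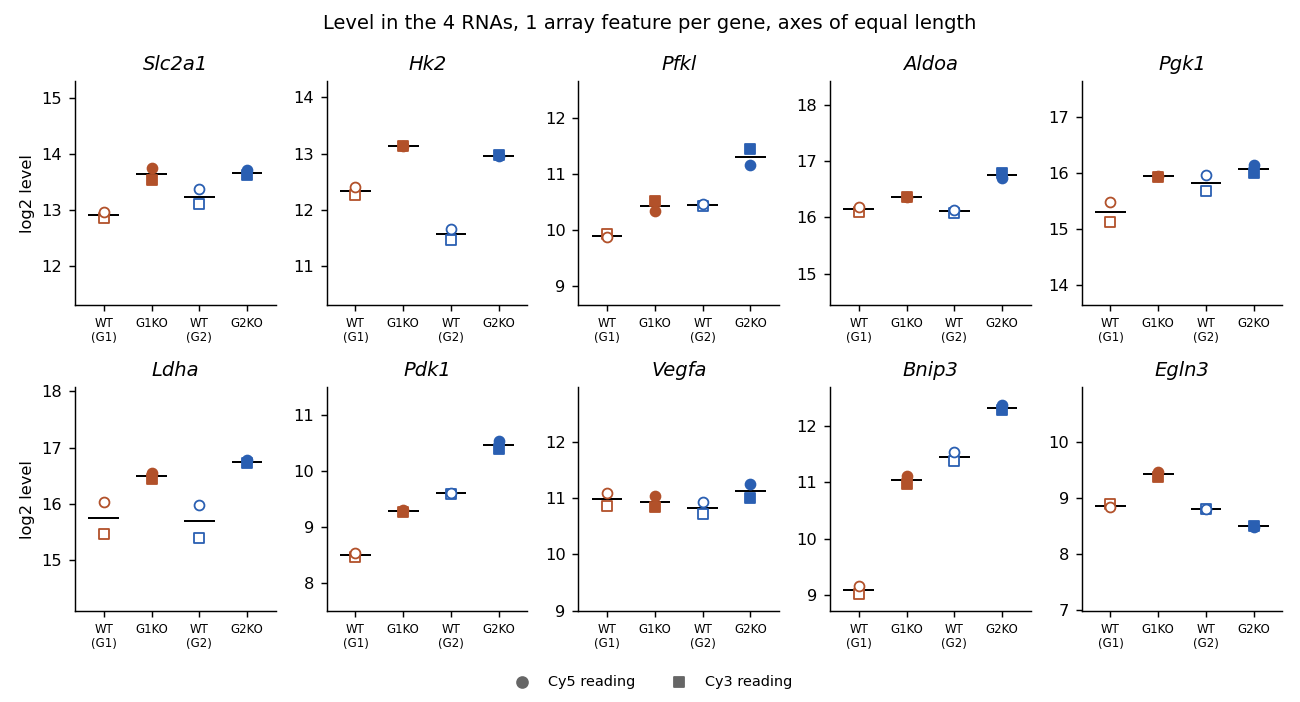
Log2 level of each of the 10 genes in the 4 RNAs, at the brightest probe tested in both comparisons, with y axes that span the same length but differ in height. Open symbols are WT and filled symbols knockout RNA, orange the G1KO pair and blue the other pair, with 1 reading per dye and black lines at their mean. For Bnip3 and Pdk1 the WT of the second pair lies above G1KO, whereas for Slc2a1, Hk2, Aldoa and Ldha both WTs lie below both knockout RNAs.

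The difference between the 2 WT RNAs sets a scale for the ratios. It was read in the same dye on different arrays. Pdk1, at both probes, and Bnip3, at its probe, were at least 2-fold apart between the WTs in both dyes. That is 2 of 10 genes. The share over the whole array was counted in probes and not in genes, as 11.1% of 26035. In size the WT difference exceeded the knockout ratio for 4 of 10 genes in G1KO, namely Pfkl, Pdk1, Vegfa and Bnip3, and for 3 in the G2KO-labelled RNA, namely Pgk1, Pdk1 and Bnip3. The mean ratios of Slc2a1, Hk2, Aldoa, Ldha and Egln3 were larger in size than their mean WT difference in both comparisons. Only means were compared, and some margins lay within the spread. In G1KO, Hk2 had a ratio of 0.80 ± 0.10 and a WT difference of -0.78 ± 0.05. Pfkl had 0.52 ± 0.17 and 0.54 ± 0.06 there. In the G2KO-labelled RNA, Slc2a1 had 0.43 ± 0.26 and 0.33 ± 0.10. In both dyes, 5 of the 10 genes were higher in the WT of the second pair. For these counts of 4, 3 and 5 genes, the share over all genes was not counted. They describe the 10 genes and do not set them apart from others. The genes varied in which knockout RNA held more: Pfkl, Pdk1 and Bnip3 were higher in the RNA labelled G2KO than in G1KO, by 0.88 ± 0.06, 1.17 ± 0.07 and 1.29 ± 0.03, Egln3 was lower, by a log2 difference of -0.92 ± 0.08, and Slc2a1 differed by 0.02 ± 0.08.

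**Figure D4:**
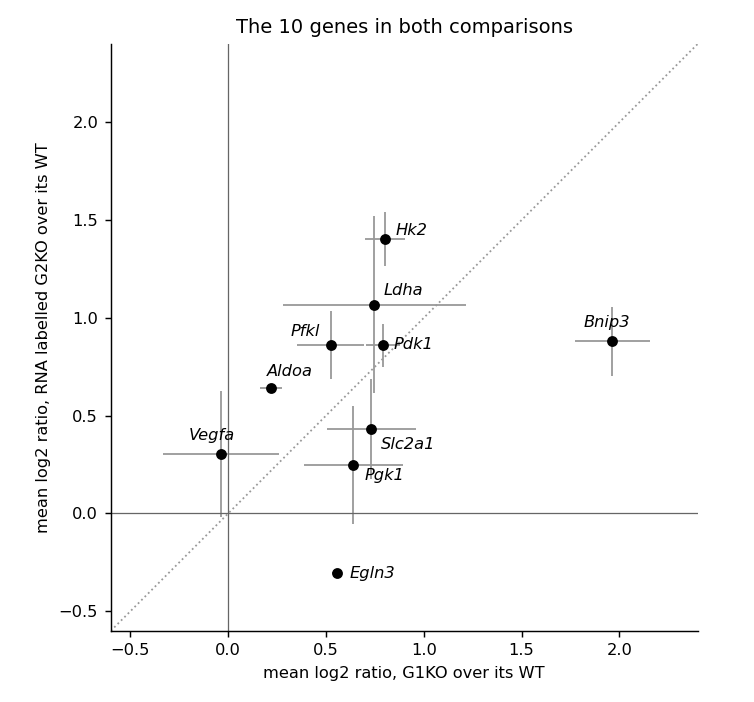
Mean log2 ratio of the 10 genes in the RNA labelled G2KO (y axis) against that in G1KO (x axis), at the brightest probe tested in both. Bars show how far both arrays of a pair lay apart, as an SD, and the dotted line marks equal ratios. Bnip3 lies to the right at 1.96, Hk2 at the top at 1.40, and Egln3 is below 0 on the y axis only.

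The genes whose ratios were most like those of Bnip3, by Euclidean distance over the 4 array ratios among 15717 genes, were Slc16a3, F730043M19Rik and Kif21b, at distances of 0.42, 0.46 and 0.46. Slc16a3 encodes MCT4, which exports lactate, and gave a mean ratio of 2.09 in G1KO and of 0.65 in the G2KO-labelled RNA. F730043M19Rik gave 2.11 and 0.97, and Kif21b, a kinesin, gave 2.25 and 0.74. Likeness over 4 arrays says nothing of function.

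In the other lists of the pathway, the brightest tested probe stands for each gene. Their medians were smaller in both comparisons than those of the 10 genes, which were chosen with these results known. Of all tested probes, 1.99% were called higher and 3.80% lower in G1KO, and 2.31% and 4.06% in the G2KO-labelled RNA. Of all tested genes, 40.0% were higher and 41.0% lower on both arrays of G1KO, and 39.9% and 43.9% on those of the other pair. Of 17 other glycolytic enzymes, 16 were tested in G1KO and 0 were called, with a median of 0.13, and 9 were higher and 4 lower on both arrays. All 17 were tested in the RNA labelled G2KO, where the median was 0.24, 12 were higher and 4 lower on both arrays, and 2 were called higher. These were Tpi1, the triose phosphate isomerase, by 1.14 ± 0.03, and Eno3, the muscle enolase, by 2.34 ± 0.26. The level of Eno3 was 11.60 and 11.53 in the WT of that pair but 13.43 and 13.23 in the other WT. It was 13.76 and 14.05 in the G2KO-labelled RNA and 13.61 and 13.91 in G1KO. Ldhb, the other main lactate dehydrogenase subunit, gave 0.78 ± 0.01 in G1KO and 0.22 ± 0.03 in the G2KO-labelled RNA. Pfkfb3, whose product raises the activator of phosphofructokinase, had ratios of -0.78 ± 0.23 and -1.12 ± 0.25, neither of them a call. Dim probes of Pfkfb3 that were also tested in G1KO gave -0.26 ± 0.15 and -0.28 ± 0.10.

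Among 5 glucose and lactate transporters, Slc16a3 was called higher in G1KO, as given above. Slc2a3, the glucose transporter GLUT3, was called lower in both comparisons at its brightest probe, with -2.57 ± 0.21 in G1KO and -1.55 ± 0.14 in the G2KO-labelled RNA. Another tested probe of Slc2a3 gave -0.26 in G1KO. The ratios of Slc2a1 had the opposite sign. Among regulators of HIF, 0 of 9 tested were called in G1KO (list median -0.07), where Hif1a itself gave 0.48 ± 0.17. In the RNA labelled G2KO (list median -0.02) Hif1a gave -0.57 ± 0.15, and Cited2, which competes with HIF for its coactivator, was called lower with -1.40 ± 0.07.

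A further list held 24 other hypoxia-induced genes, among them Ccng2, the gene targeted in the second comparison. All 24 were tested, and 2 were called higher and 4 lower in G1KO, with a median of -0.0075. The shares of all tested probes were 1.99% and 3.80%. Adm, a vasodilator peptide, and Flt1, a VEGF receptor, were the higher ones, by 1.82 ± 0.30 and 3.27 ± 0.09. The repressor Bhlhe40 (-1.09 ± 0.02), Lox (-1.58 ± 0.25) and Angptl4 (-1.78 ± 0.17) were among the lower ones. In the RNA labelled G2KO, 2 were called higher and 3 lower, beside 2.31% and 4.06% of all tested probes, with a median of 0.08. There Tfrc, the transferrin receptor, was higher by 1.30 ± 0.03 and Angptl4, a lipase inhibitor, by 1.47 ± 0.16. Adm (-3.28 ± 0.40), Lox (-5.05 ± 0.10), which crosslinks collagen, and Flt1 (-1.42 ± 0.19) were called lower. Adm, Flt1 and Angptl4 were thus called in opposite directions in the 2 comparisons. Their levels in the 2 WT RNAs were far apart, so that the opposite calls hold a difference between the WTs. The WT of the G1KO pair read 9.40 and 9.66 for Adm, 8.17 and 8.14 for Flt1, and 12.57 and 12.72 for Angptl4. In the same order, the WT of the other pair read 12.52 and 12.60, 13.54 and 13.35, and 7.95 and 7.94. Ankrd37 had 0.92 ± 0.02 and 0.94 ± 0.09, neither of them a call. Ndrg1 went the other way, with -0.90 ± 0.16 and -0.79 ± 0.18, again without a call. Of the 24 genes, 9 were higher and 10 lower on both arrays of G1KO. On those of the other pair, 10 were higher and 10 lower.

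Of 11 genes of pyruvate entry into mitochondria, 0 were called in G1KO (median -0.14). In the G2KO-labelled RNA, where 4.06% of all tested probes were called lower, 3 of the 11 were (median -0.33). These were the kinases Pdk3 (-1.18 ± 0.10) and Pdk4 (-1.74 ± 0.09), which are relatives of Pdk1, and pyruvate carboxylase, Pcx (-1.37 ± 0.16). Pdk1 was the one of these kinases that was higher there, while Pdk2 gave -0.11 ± 0.01. None of 8 genes of the pentose phosphate pathway was called in either comparison, with medians of -0.15 and 0.25.

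**Figure D5:**
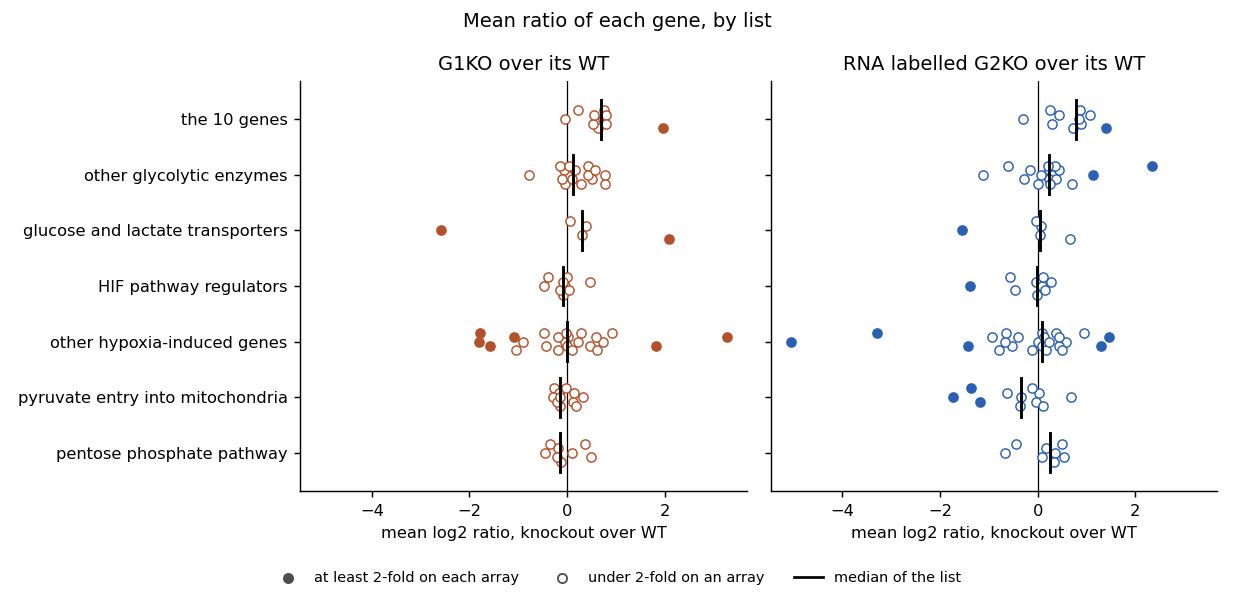
Mean log2 ratio of knockout over WT for each tested gene, by list, in G1KO (left) and in the G2KO-labelled RNA (right). Filled points passed 2-fold on each array of the pair and black bars are list medians. The 10 genes have medians of 0.69 and 0.79 with most points right of 0, whereas the other hypoxia-induced genes spread to both sides around medians of -0.0075 and 0.08.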

How the data were processed

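Total RNA of the 4 cultures was amplified from an oligo-dT primer and hybridised to Agilent mouse arrays. The authors quantified the scans with Agilent Feature Extraction, for which the file headers give version 10.5.1.1 and the submitters' processing notes 9.1. The deposited scanner files hold spot and background intensity on a linear scale with no normalisation, and a log10 ratio of Cy5 over Cy3 that the software had background-subtracted and dye-normalised. The deposited series table holds that log10 ratio turned to knockout over WT (r of 0.999999 and -0.999999 with the scanner's ratio), with a median of 0 on each array, and is not independent of it. The files' p-values, from an error model within an array, were not used.

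Intensity was corrected by normexp (offset 50) and each array normalised by loess (span 0.3) with limma 3.58.1 in R 4.3.3. Control spots and 117, 203, 129 and 114 outlier spots per array were left out, spots of a probe were averaged, and ratios were turned to knockout over WT by the labelled dyes. Levels came from each channel after loess and Aquantile scaling. A probe was tested where it was well above background on both arrays in at least 1 genotype. Between 25366 and 27757 of 43379 gene spots were well above background per channel. The number of arrays limits the precision. Over all tested probes the SD between arrays was 0.13 in each pair. Probe positions came from the array's design (mm8), and exons were not analysed here. Names were updated through RefSeq (GRCm38.p6), with 24375 probes matched on the accession, 6301 on the symbol, 2426 on a former symbol and 8072 left as in the file. The steps were tested on simulated data.

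The 10 genes and all lists were chosen with earlier results of these data known. The text names all 10 genes with every probe, the called members of each pathway list except 1 that is not reported here, the targeted and sex-linked genes, and the 3 genes nearest in pattern to the member with the largest ratios. Ldhb, Pfkfb3, Hif1a, Ankrd37, Ndrg1 and Pdk2 were named after their values were seen. Alternatives covered background correction, normalisation, the scanner's ratio, the series table, the filter on dim probes, outlier spots, the probe per gene, the threshold and leaving out each array.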

Additional observations from a re-analysis of the deposited data

Results flagged for a closer look

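For Egln3 and for a probe of Vegfa, all arrays of one comparison had the opposite sign to all arrays of the other. The ratio of Egln3 was above 0 on both arrays of G1KO (mean 0.56) and below 0 on both arrays of the RNA labelled G2KO (mean -0.30), so that the second minus the first was -0.86 on the log2 scale. For Egln3 the knockout levels differed by -0.92 ± 0.08 and the WT levels by -0.06 ± 0.05. The probe of Vegfa at 45489008 to 45489067 was below 0 on both arrays of G1KO (mean -0.09) and above 0 on both of the other pair (mean 0.65), a difference of 0.74. At that probe the levels of the 2 knockout RNAs differed by -0.02 ± 0.03 and those of the 2 WT RNAs by -0.77 ± 0.08 (the second pair minus the first), so that the difference lay in the WT levels. The other 2 probes of Vegfa did not show opposite signs on every array. With 1 replicate per genotype, neither difference was tested.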

How the results depend on the processing

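The median ratio of the 10 genes stayed between 0.55 and 0.84 in G1KO and between 0.61 and 0.92 in the RNA labelled G2KO over 11 alternatives each, and on single arrays it was 0.55 and 0.84, then 0.61 and 0.84. With median centring in place of loess, 4 of 10 genes were higher on both arrays in either comparison in place of 9, while the mean of both arrays stayed above 0 for 10 and 9 genes. The same setting left 0 called probes in the RNA labelled G2KO. The scanner's log ratio and the series table each gave 2 called probes in G1KO in place of 1. On single arrays the called probes ranged from 1 to 3 in both comparisons. The 1.5-fold threshold gave 5 and 8 called probes and the 4-fold threshold 0 and 0. Of 31 single-probe ratios, 30 kept their sign under every alternative, and the exception was the brightest probe of Vegfa in G1KO. The cause of these changes was not tested, except that a dye difference that depends on brightness is by construction kept by median centring and removed by loess. No paired analysis was possible because each pair of arrays holds the same RNAs of 1 replicate, so that no second culture of either genotype can be paired.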
